A study of Elodea nuttallii and Chlamydomonas reinhardtii with 18 samples.

Results

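Transcripts of the jasmonate, ethylene and abscisic acid pathways were taken from the shoots of Elodea nuttallii, a submerged waterweed, by the words of their descriptions. A transcript was a member if it stood in any of the authors' 3 Elodea comparison tables and the text of its description held jasmon, tify, lipoxygenase, allene oxide, ethylene or abscisic. The rule found 214 transcripts from 136 assembled loci, among 58110 Elodea transcripts and among 4728 transcripts that those tables describe. In 45 of the 214, from 29 loci, the protein name itself matched: 14 for jasmonate, 24 for ethylene and 7 for abscisic acid. These 45 are described first and in full. The other 169, from 107 loci, matched only in the functional terms listed after the name, and in 1 of them, a methylenetetrahydrofolate dehydrogenase, the match lay inside a longer word that names no hormone.

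Jasmonates are made from chloroplast fatty acids, which 13-lipoxygenases oxidise and allene oxide synthase converts further; the hormone then releases transcription factors from JAZ (TIFY) repressors. Ethylene is made from methionine through 1-aminocyclopropane-1-carboxylate (ACC), and its signal passes through the membrane protein EIN2 to EIN3-type factors and on to ethylene response factors (ERFs). Abscisic acid is made from carotenoids, is perceived by PYR-type receptors that block protein phosphatases 2C, acts through bZIP factors, and is degraded by 8′-hydroxylases. In land plants the 3 hormones are known for their parts in wounding, flooding and drought.

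The series asks, by its title, how mercury in the field acts on a microalga and a macrophyte; the labels hold no measured mercury concentration. Its 9 Elodea libraries, of 18 samples in all, come from shoots, the top 10 cm with the apex, that were collected at a clean site and then held for 2 h in the River Olt. The shoots were exposed at Babeni site 2, at Babeni site 1 or at Valcea, with 3 libraries a site, and mRNA libraries were made with strand information from 300 ng of total RNA. Nothing in the labels ties the 3 libraries of a site to separate plants, so p-values rest on a spread that may be technical.

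The libraries held 2875062 to 7824727 reads, and 3 reads, taken as a detection floor, amount to 0.351 to 1.19 CPM. That floor only marks low values and enters no difference. Values are normalised read counts (CPM) as the authors scaled them. Valcea replicate 1 was the shallowest. By chi-square per transcript Valcea replicate 3 stood apart from its site. It had 7.18 and 7.66 against Valcea replicates 1 and 2, where other pairs of a site gave at most 4.45. Correlations of log2 values did not set it apart in the same way. They were 0.918 and 0.935 with Valcea replicates 1 and 2, which had 0.934 with each other. Shoot markers were present everywhere: 42 transcripts of chlorophyll a/b binding proteins summed to 1771 to 2055 CPM in Babeni site 2 libraries, 3752 to 4505 CPM in those of Babeni site 1 and 2043 to 2858 CPM in those of Valcea. Since whole shoots were sequenced, fewer cells of a type and less RNA per cell cannot be told apart.

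Among the 45 transcripts matched by name, lipoxygenases and the AP2-type factors of Locus_8882 and Locus_858 had higher means at both Babeni sites than at Valcea. ERFs of the RAP2-12 and ERF071 kind were lower at both. EIN2-like transcripts, a PYR1-like receptor transcript and an abscisic acid element-binding factor were lowest at Babeni site 1. Such members can be a small part of their locus. They made up 4.16% of lipoxygenase Locus_181, 8.89% of lipoxygenase Locus_75 and 22.5% of receptor Locus_5963. Summed over all transcripts, each of these loci overlapped between Babeni site 1 and Valcea. A transcript is said to have risen or fallen when its adjusted p from limma was under 0.05 and the sites differed 2-fold or more. Of the 44 that could be tested, 22 rose and 7 fell at Babeni site 2 against Valcea, where 12.1% of all 56752 tested transcripts passed (6% rose and 6.09% fell). At Babeni site 1 against Valcea 14 rose and 9 fell, where 9.08% of all passed (4.17% rose and 4.9% fell). Between Babeni site 2 and Babeni site 1, 4 rose and 2 fell, where 3.18% of all passed (1.55% rose and 1.63% fell). The authors' deposited tables list 30, 29 and 9 of the 45 in these 3 comparisons, beside 15%, 10.7% and 4.89% of all 58110 transcripts. Because those tables chose the members, at a fold of 2 and a false discovery rate of 5%, these counts describe the members and nothing is read from their excess. The median log2 difference of the 44 was 0.92, 0.66 and 0.30 in the 3 comparisons, beside 0.05, 0.03 and 0.02 over all tested transcripts. Both comparisons with Valcea use the same 3 Valcea libraries.

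**Figure D1:**
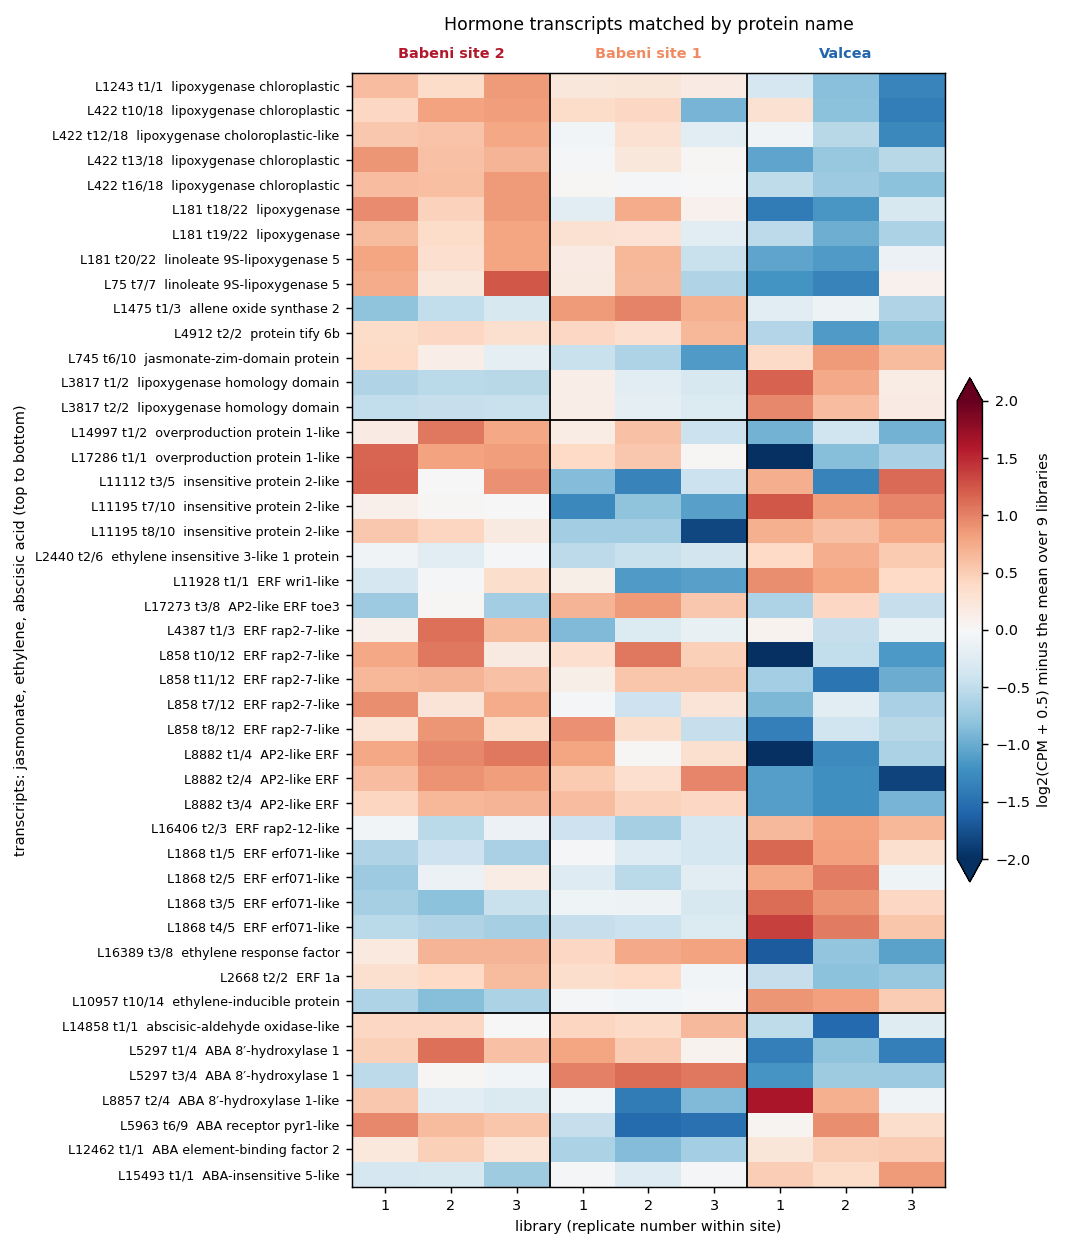
Level of each of the 45 transcripts matched by name (rows, labelled by locus and transcript number) in the 9 Elodea libraries (columns), as log2(CPM + 0.5) minus the row's mean over the 9 libraries; lines divide sites and hormones. Lipoxygenases and the AP2-type factors of Locus_8882 and Locus_858 are red at Babeni site 2 and mostly blue at Valcea, while the ERF071-like rows are mostly blue at both Babeni sites; colours end at 2 on either side.

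In the libraries themselves, 25 of the 45 lay wholly higher at Babeni site 2 than at Valcea and 12 wholly lower, where 18.4% and 17.5% of tested transcripts did so. At Babeni site 1 against Valcea 19 lay wholly higher and 16 wholly lower, where 15.4% and 15.6% did so. Babeni site 2 against Babeni site 1 gave 15 wholly higher and 10 wholly lower, where 12.1% and 11.8% did so. Leaving out Valcea replicate 3 ended 3 of the 29 calls at Babeni site 2 and added 1, and ended 1 of the 23 at Babeni site 1 and added 6. Leaving out Babeni site 1 replicate 3 ended 2 and added 6 there. Leaving out Valcea replicate 1 ended 3 calls at each Babeni site and added 2 at Babeni site 1. Only libraries of the compared sites were left out. Whichever 1 of these it was, 22 of 29, 18 of 23 and 4 of 6 calls stood in the comparisons of Babeni site 2 with Valcea, Babeni site 1 with Valcea and Babeni site 2 with Babeni site 1.

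Lipoxygenases add oxygen to fatty acids, and 9 transcripts from 4 loci bear that name. All 9 rose at Babeni site 2 against Valcea, with log2 differences of 1.27 to 1.71 and a median of 1.40. At Babeni site 1 against Valcea 2 of them rose, with a median of 0.86 over the 9, and the other 7 had differences above 0 that did not pass. Of all tested transcripts 6% rose at Babeni site 2 and 4.17% at Babeni site 1 against Valcea, and the authors' tables chose the 9. Between Babeni site 2 and Babeni site 1 the 9 differences, with a median of 0.62, lay above 0 and under 2-fold. Their summed level was 207.8, 175.0 and 231.4 CPM in the Babeni site 2 libraries, 136.2, 165.4 and 113.1 CPM in the Babeni site 1 libraries and 78.6, 64.6 and 83.7 CPM in the Valcea libraries. The 3 sites did not overlap in that sum, but the tables that chose the 9 use these same contrasts, so nothing is read from it. Summed over all transcripts of a locus, Babeni site 1 overlapped Valcea in Locus_181 (log2 difference 0.06 ± 0.14) and Locus_75 (0.05 ± 0.13). It lay above Valcea in Locus_422 (0.41 ± 0.11) and Locus_1243 (1.04 ± 0.21).

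Chloroplast lipoxygenases, the type that feeds jasmonate synthesis, made up 5 of the 9. The most abundant member of Locus_422, Locus_422_Transcript_16_18_, stood at 48.7, 48.3 and 57.8 CPM in the Babeni site 2 libraries, 32.4, 31.1 and 31.4 CPM in the Babeni site 1 libraries and 22.2, 18.9 and 17.7 CPM in the Valcea libraries. Babeni site 2 was highest, Valcea lowest, and no site overlapped another. Its log2 difference was 1.37 ± 0.14 (SE of the fit to all 9 libraries) for Babeni site 2 minus Valcea, 0.68 ± 0.14 for Babeni site 1 minus Valcea and 0.69 ± 0.14 for Babeni site 2 minus Babeni site 1. A shorter transcript of the same locus, Locus_422_Transcript_13_18_, had 12.05, 9.76 and 10.4 CPM in Babeni site 2 shoots, 6.13, 7.44 and 6.45 CPM in Babeni site 1 shoots and 2.78, 3.55 and 4.14 CPM in Valcea shoots, and again no site overlapped another. The fragment Locus_1243_Transcript_1_1_, also a chloroplast lipoxygenase, had 26.8, 22.4 and 31.6 CPM in Babeni site 2 shoots, 20.3, 20.4 and 19.3 CPM in Babeni site 1 shoots and 13.5, 9.47 and 6.58 CPM in Valcea shoots. It rose at both Babeni sites, by 1.45 ± 0.21 at Babeni site 2 and 1.04 ± 0.21 at Babeni site 1, but without Valcea replicate 3 the difference at Babeni site 1 was 0.80 and did not pass. The 2 remaining chloroplast transcripts of Locus_422 rose at Babeni site 2 with all libraries (1.31 and 1.27), and without Valcea replicate 3 both stood at 0.94 and did not pass. The call of Locus_422_Transcript_10_18_ also ended without Babeni site 2 replicate 2 (1.26), Babeni site 2 replicate 3 (1.24) or Valcea replicate 2 (1.22).

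Of the other 4 lipoxygenase transcripts, 2 are named linoleate 9S-lipoxygenase, a type whose products lie outside jasmonate synthesis, and 2 lipoxygenase with no type. The most abundant, Locus_181_Transcript_20_22_, had 45.4, 32.9 and 45.5 CPM in the Babeni site 2 libraries, 29.3, 41.6 and 18.9 CPM in the Babeni site 1 libraries and 12.3, 11.6 and 24.1 CPM in the Valcea libraries. Every Babeni site 2 library lay above every Valcea library, while 1 Babeni site 1 library lay below Valcea replicate 3, the highest at Valcea. The log2 difference was 1.40 ± 0.27 for Babeni site 2 minus Valcea and 0.89 ± 0.27 for Babeni site 1 minus Valcea. At Babeni site 1 the call was made without Valcea replicate 3 (1.22) or Babeni site 1 replicate 3 (1.18). Locus_75_Transcript_7_7_ had the same order of means, with 16.6, 11.5 and 23.5 CPM in Babeni site 2 shoots, 11.1, 15.5 and 6.23 CPM in Babeni site 1 shoots and 3.97, 3.55 and 10.3 CPM in Valcea shoots, and Babeni site 1 again overlapped Valcea. It rose at Babeni site 2 by 1.55 ± 0.36, and without Valcea replicate 3 its difference at Babeni site 1 was 1.34 and passed. Locus_75_Transcript_6_7_, 85.7% of that locus and no member, stood at 0.96 ± 0.13 at Babeni site 2 and 0.06 ± 0.13 at Babeni site 1. Locus_75_Transcript_5_7_, no member either, stood at -0.44 ± 0.22 at Babeni site 2 and -0.91 ± 0.22 at Babeni site 1. Locus_181_Transcript_18_22_ rose at both sites, by 1.71 ± 0.27 at Babeni site 2 and 1.17 ± 0.27 at Babeni site 1. At Babeni site 1 its call ended without Babeni site 1 replicate 2 (0.90) or Valcea replicate 1 (0.95).

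Allene oxide synthase, the next enzyme of jasmonate synthesis, had its peak at the other Babeni site. Locus_1475_Transcript_1_3_ stood at 1.40, 1.88 and 2.17 CPM in the Babeni site 2 libraries, 5.55, 6.11 and 4.94 CPM in the Babeni site 1 libraries and 2.38, 2.60 and 1.69 CPM in the Valcea libraries. All Babeni site 1 libraries lay above those of the other sites, and Babeni site 2 overlapped Valcea. Its log2 difference was 1.16 ± 0.26 for Babeni site 1 minus Valcea, -0.23 ± 0.26 for Babeni site 2 minus Valcea and -1.39 ± 0.26 for Babeni site 2 minus Babeni site 1.

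The JAZ repressors hold jasmonate-responsive factors in check, and the 2 transcripts in the set differed from Valcea in different directions. Protein tify 6b, Locus_4912_Transcript_2_2_, had 14.3, 14.6 and 13.7 CPM in Babeni site 2 shoots, 14.7, 13.9 and 17.6 CPM in Babeni site 1 shoots and 7.15, 4.73 and 6.02 CPM in Valcea shoots. Both Babeni sites lay above Valcea and overlapped each other, with log2 differences of 1.20 ± 0.18 at Babeni site 2 and 1.31 ± 0.18 at Babeni site 1. The jasmonate-zim-domain protein Locus_745_Transcript_6_10_ was scarcer, with 2.81, 2.25 and 1.73 CPM in Babeni site 2 shoots, 1.34, 1.14 and 0.645 CPM in Babeni site 1 shoots and 2.78, 4.02 and 3.39 CPM in Valcea shoots. It fell at Babeni site 1 against Valcea by 1.35 on the log2 scale, and its difference of -0.50 ± 0.30 at Babeni site 2 did not pass. The other transcript of its locus, Locus_745_Transcript_8_10_, stood at 0.16 ± 0.31 at Babeni site 1 and 0.26 ± 0.31 at Babeni site 2. The sum of Locus_745 passed in no comparison, at -0.68 for Babeni site 1 and -0.20 for Babeni site 2 minus Valcea. MYC2-type factors, which JAZ proteins bind, are given with the pathway genes whose protein names the rule does not match.

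Lipoxygenase homology domain proteins carry the PLAT domain, which lipoxygenases also have, and take their name from an animal protein that is no lipoxygenase. Both transcripts of Locus_3817 had lower values at the Babeni sites. Locus_3817_Transcript_2_2_ stood at 33.9, 34.9 and 35.1 CPM in the Babeni site 2 libraries, 52.7, 42.2 and 39.8 CPM in the Babeni site 1 libraries and 93.7, 73.8 and 53.8 CPM in the Valcea libraries. No site overlapped another, and the Valcea libraries were the most spread, replicate 3 lowest. The log2 difference was -1.04 ± 0.17 for Babeni site 2 minus Valcea, and -0.85, which did not pass, without Valcea replicate 1. For Babeni site 1 minus Valcea it was -0.69 ± 0.17. Locus_3817_Transcript_1_2_ fell at Babeni site 2 by 1.27 on the log2 scale; at Babeni site 1 its difference was -0.83, and -1.097 without Valcea replicate 3, which passed. Per kb of transcript these 2 were among the most abundant of the 45, at 78.4 and 39.4 CPM per kb over the 9 libraries, beside 67.6 for the lipoxygenase fragment and 10.8 for Locus_422_Transcript_16_18_.

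**Figure D2:**
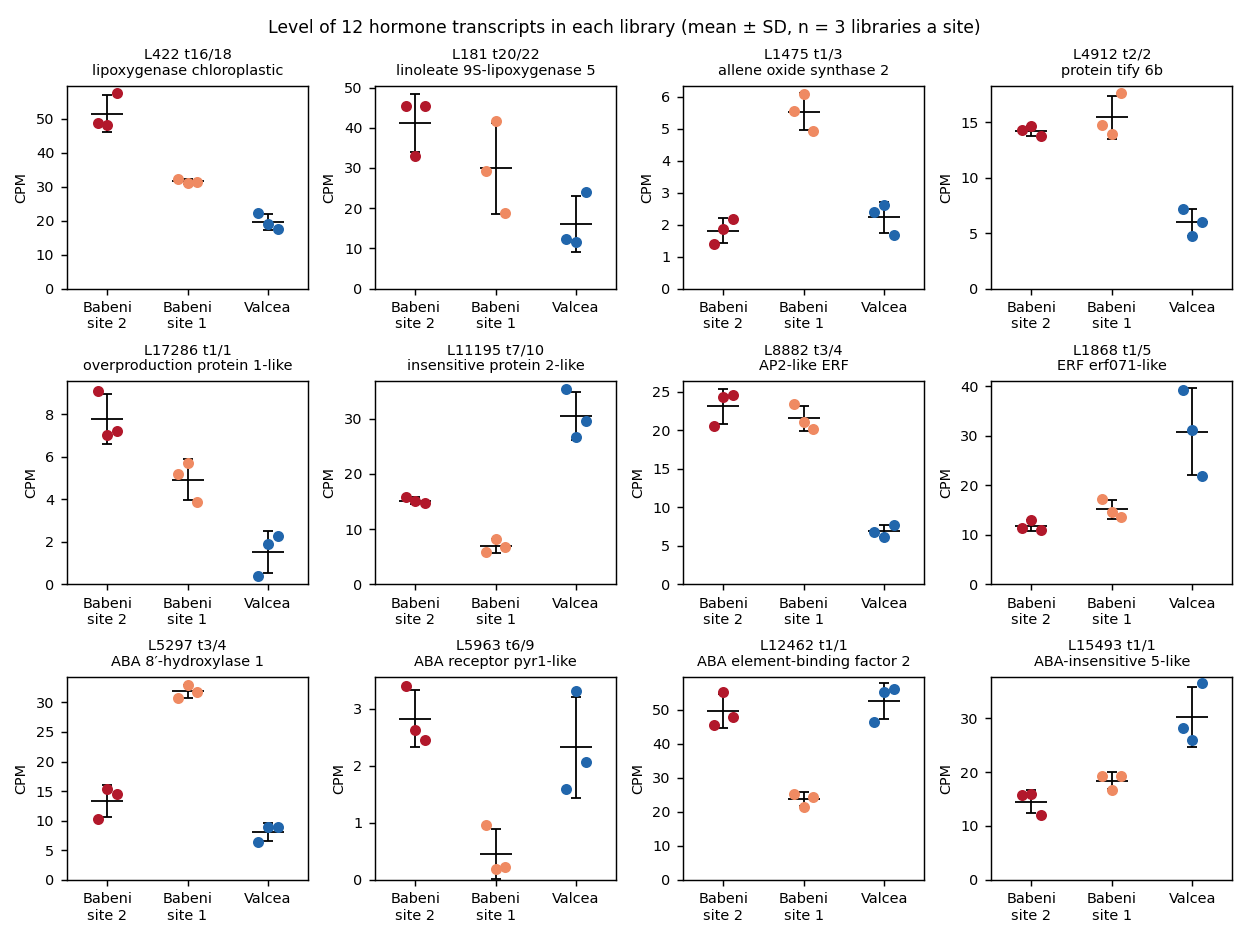
CPM (vertical axes, from 0) of 12 of the transcripts in each library, 1 point per library, with the mean and SD of the 3 libraries of a site as a bar. The lipoxygenases, the overproduction protein and the AP2-like factor lie lowest at Valcea, allene oxide synthase and 8′-hydroxylase lie highest at Babeni site 1, and the EIN2-like transcript, the receptor and ABA element-binding factor 2 lie lowest there.

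The members of a locus were often its minor transcripts. The 29 loci hold 88 assembled transcripts, of which 45 are members and 43 are not, and members made up the smaller part of the summed CPM in 10 of the 16 loci that have other transcripts. In CPM not divided by length, the 3 members of lipoxygenase Locus_181 made up 4.16% of the locus, and transcript Locus_181_Transcript_21_22_ made up 69.6%. That transcript, which no authors' table lists, had 1264, 1032 and 1366 CPM in the Babeni site 2 libraries, 889.7, 713 and 739 CPM in the Babeni site 1 libraries and 722, 945 and 737 CPM in the Valcea libraries. Babeni site 2 was highest, and Babeni site 1 overlapped Valcea. Its log2 difference of 0.61 ± 0.14 for Babeni site 2 minus Valcea was smaller than the 1.31 to 1.71 of the 3 members and did not reach 2-fold, and for Babeni site 1 minus Valcea it was -0.03 ± 0.14. In chloroplast lipoxygenase Locus_422 the most abundant transcript, Locus_422_Transcript_17_18_, is not a member either, and had 53.3, 52.2 and 56.9 CPM in Babeni site 2 shoots, 35.4, 42.6 and 43.2 CPM in Babeni site 1 shoots and 37.7, 45.2 and 30.5 CPM in Valcea shoots. Its log2 differences of 0.53 ± 0.15 at Babeni site 2 and 0.11 ± 0.15 at Babeni site 1 from Valcea did not reach 2-fold. Allene oxide synthase Locus_1475 was alike in this: its member made up 4.61% of the locus, and Locus_1475_Transcript_2_3_, 95.4% of it, had 47.3, 49.3 and 49.1 CPM in Babeni site 2 shoots, 91.2, 92.4 and 98.0 CPM in Babeni site 1 shoots and 57.2, 61.5 and 49.1 CPM in Valcea shoots. In both transcripts Babeni site 1 was highest, but the log2 differences of the abundant one were 0.75 ± 0.12 for Babeni site 1 minus Valcea, -0.20 ± 0.12 for Babeni site 2 minus Valcea and -0.94 ± 0.12 for Babeni site 2 minus Babeni site 1, none of which reached 2-fold.

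The same comparisons were made on sums over all transcripts of a locus. At Babeni site 2 against Valcea 7 of the 29 loci rose and 4 fell, with 12.5% of all 36309 locus sums called. At Babeni site 1 against Valcea 7 rose and 7 fell, with 9.25% called, and between Babeni site 2 and Babeni site 1, 2 rose and 1 fell, with 3.43% called. No lipoxygenase locus with more than 1 transcript passed as a sum: the differences for Babeni site 2 minus Valcea were 0.94 in Locus_422, 0.91 in Locus_75 and 0.59 in Locus_181. The sum of allene oxide synthase Locus_1475 did not pass either, at 0.77 for Babeni site 1 minus Valcea and -0.97 for Babeni site 2 minus Babeni site 1. In 3 loci a sum had the other sign than a member: for Babeni site 1 minus Valcea the RAP2-7-like Locus_4387 stood at 0.75 where Locus_4387_Transcript_1_3_ had -0.27, and for Babeni site 2 minus Babeni site 1 Locus_5297 stood at -1.05 where Locus_5297_Transcript_1_4_ had 0.26, and Locus_1868 at -0.27 where Locus_1868_Transcript_2_5_ had 0.10. How the authors divided reads between the like sequences of 1 locus is not known, so the shares of single transcripts are uncertain.

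**Figure D3:**
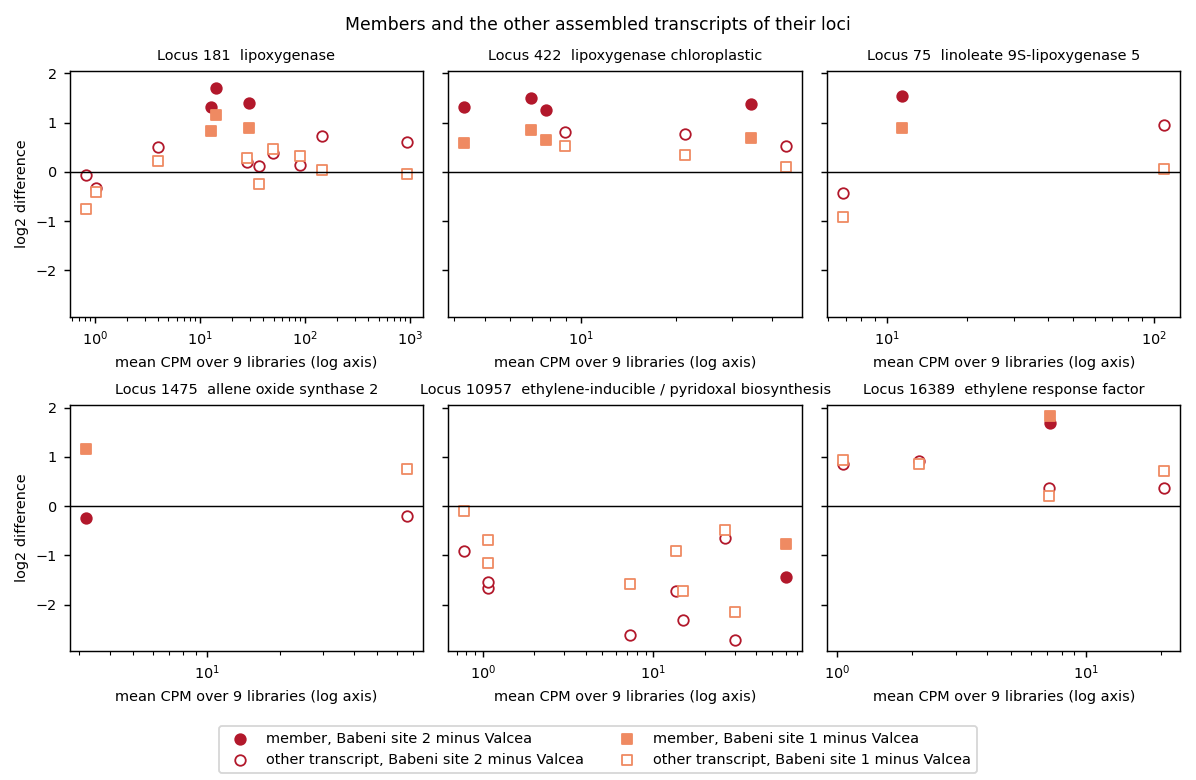
Log2 difference from Valcea (vertical axes) against mean CPM over the 9 libraries (horizontal log axes) for all transcripts of 6 loci; filled points are members, open points the other transcripts, circles Babeni site 2 and squares Babeni site 1. In Locus_181, Locus_422, Locus_75 and Locus_1475 the most abundant transcript is an open point and its Babeni site 1 value lies closer to 0 than that of the filled points.

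The ethylene set, 24 transcripts from 15 loci, held no enzyme of ethylene synthesis by name. At Babeni site 2 against Valcea 10 rose and 4 fell of 23 tested, where 6% and 6.09% of all tested transcripts did so. At Babeni site 1 against Valcea 7 rose and 5 fell, where 4.17% and 4.9% of all did so. Between Babeni site 2 and Babeni site 1 the 2 that passed both rose, where 1.55% of all rose and 1.63% fell. The authors' tables chose these members, so nothing is read from the counts. Its groups differed in direction and are given by role.

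Ethylene-overproduction protein 1, known in Arabidopsis to mark ACC synthase for degradation, was higher at Babeni. Locus_17286_Transcript_1_1_ had 9.12, 7.01 and 7.22 CPM in the Babeni site 2 libraries, 5.17, 5.72 and 3.87 CPM in the Babeni site 1 libraries and 0.397, 1.89 and 2.26 CPM in the Valcea libraries. No site overlapped another, Babeni site 2 being highest. It rose by 2.19 ± 0.34 at Babeni site 2 and 1.57 ± 0.34 at Babeni site 1 on the log2 scale. The second such protein, Locus_14997_Transcript_1_2_, was near its detection limit, with 0.585, 1.50 and 1.16 CPM in Babeni site 2 shoots, 0.574, 0.954 and 0.215 CPM in Babeni site 1 shoots and 0, 0.237 and 0 CPM in Valcea shoots, and its low level kept it from the test. All Valcea libraries lay under their 3-read floor, with 1 read in all.

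Members named after EIN2, a membrane protein that passes on the ethylene signal, and EIN3-like 1, the transcription factor behind it, had their lowest means at Babeni site 1. Locus_11195_Transcript_7_10_, EIN2-like, had 15.8, 15.0 and 14.7 CPM in the Babeni site 2 libraries, 5.74, 8.21 and 6.66 CPM in the Babeni site 1 libraries and 35.3, 26.7 and 29.5 CPM in the Valcea libraries. Valcea was highest, Babeni site 1 lowest and no site overlapped another. It fell by 2.08 on the log2 scale at Babeni site 1 against Valcea, while its difference of -0.98 ± 0.17 at Babeni site 2 did not reach 2-fold, and it was higher at Babeni site 2 than at Babeni site 1 by 1.10 ± 0.17. That last call ended without Babeni site 1 replicate 1 (0.99), and the difference at Babeni site 2 passed without Babeni site 2 replicate 1 (-1.004) or Valcea replicate 2 (-1.07). The second transcript of the locus, Locus_11195_Transcript_8_10_, had 11.9, 11.02 and 9.24 CPM in Babeni site 2 shoots, 4.79, 4.77 and 1.93 CPM in Babeni site 1 shoots and 13.5, 12.3 and 14.1 CPM in Valcea shoots, again lowest at Babeni site 1 (-1.76 ± 0.26 against Valcea). EIN3-like 1, Locus_2440_Transcript_2_6_, had 8.77, 7.89 and 9.10 CPM in Babeni site 2 shoots, 6.32, 6.68 and 7.09 CPM in Babeni site 1 shoots and 12.3, 15.6 and 13.5 CPM in Valcea shoots. No site overlapped another, and its differences of -0.99 ± 0.17 at Babeni site 1 and -0.65 ± 0.17 at Babeni site 2 did not pass with all libraries. This transcript made up 13.4% of Locus_2440. The sum of that locus passed in no comparison and overlapped between Babeni site 2 and Babeni site 1 (means of 65.7 and 60.6 CPM). The EIN2-like Locus_11112_Transcript_3_5_ was scarce, with 3 reads in all at Babeni site 1, and passed in no comparison with all libraries.

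AP2-type factors, which carry a pair of AP2 domains or are named after such proteins and whose Arabidopsis relatives act in growth-phase change and flowering, made up 10 of the 24. The 3 transcripts of Locus_8882 were the most abundant, and Locus_8882_Transcript_3_4_ stood at 20.5, 24.3 and 24.5 CPM in the Babeni site 2 libraries, 23.4, 21.0 and 20.2 CPM in the Babeni site 1 libraries and 6.75, 6.15 and 7.71 CPM in the Valcea libraries. Both Babeni sites lay above Valcea and overlapped each other. The log2 difference was 1.68 ± 0.16 at Babeni site 2 and 1.58 ± 0.16 at Babeni site 1. Locus_8882_Transcript_1_4_ had 11.3, 13.02 and 13.9 CPM in Babeni site 2 shoots, 11.5, 6.49 and 8.17 CPM in Babeni site 1 shoots and 1.19, 2.37 and 3.95 CPM in Valcea shoots, and Locus_8882_Transcript_2_4_ had 6.43, 7.89 and 7.51 CPM in Babeni site 2 shoots, 5.94, 5.15 and 8.38 CPM in Babeni site 1 shoots and 1.59, 1.42 and 0.753 CPM in Valcea shoots. All 3 rose at both Babeni sites, and the sum of the locus did so too. Since Locus_8882 has no other transcript in the table, these 3 account for it.

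The 4 transcripts of Locus_858, RAP2-7-like, were scarcer. Locus_858_Transcript_11_12_ had 5.85, 5.88 and 5.49 CPM in Babeni site 2 shoots, 3.83, 5.34 and 5.37 CPM in Babeni site 1 shoots and 1.99, 0.947 and 1.51 CPM in Valcea shoots, with the Babeni libraries all above those of Valcea. It rose by 1.69 ± 0.26 at Babeni site 2 and 1.46 ± 0.26 at Babeni site 1, and Locus_858_Transcript_10_12_ by 1.95 ± 0.40 and 1.92 ± 0.40 at the same sites. The other 2 passed at Babeni site 2, and both calls ended without Babeni site 2 replicate 1, Babeni site 2 replicate 3 or Valcea replicate 1. Locus_858_Transcript_7_12_ then stood at 1.09, 1.18 and 1.08. Locus_858_Transcript_8_12_ had 4 reads over the Valcea libraries, all under their 3-read floor, so no fold is given, and its call ended without Babeni site 2 replicate 2 as well. The summed locus rose at both Babeni sites, by 1.92 at Babeni site 2 and 1.65 at Babeni site 1. Of 3 further AP2-type loci, 1 transcript each was a member. The WRI1-like Locus_11928_Transcript_1_1_, named after an Arabidopsis regulator of oil synthesis, had 0.702, 1.00 and 1.44 CPM in Babeni site 2 shoots, 1.15, 0.191 and 0.215 CPM in Babeni site 1 shoots and 2.38, 2.13 and 1.51 CPM in Valcea shoots; its call at Babeni site 1 (-1.41 ± 0.39) ended without any 1 of Babeni site 1 replicates 2 and 3 and Valcea replicates 1 and 2, at -1.19 to -1.36. TOE3-like and a second RAP2-7-like transcript passed in no comparison with all libraries. The latter made up 16.8% of Locus_4387, whose sum rose at Babeni site 2 against Valcea (1.02 ± 0.20). Locus_4387_Transcript_3_3_, 74.6% of that locus and no member, rose there too (1.02 ± 0.25).

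RAP2-12-like and ERF071-like proteins bear the names of group VII ERFs of Arabidopsis, factors known for their part in the response to low oxygen, and all 5 such transcripts had lower means at both Babeni sites than at Valcea. Locus_16406_Transcript_2_3_, RAP2-12-like, stood at 24.2, 17.1 and 23.0 CPM in the Babeni site 2 libraries, 18.6, 15.6 and 19.8 CPM in the Babeni site 1 libraries and 39.7, 44.0 and 39.9 CPM in the Valcea libraries. Both Babeni sites lay below Valcea and overlapped each other. It fell by 1.18 on the log2 scale at Babeni site 1 against Valcea, and its difference at Babeni site 2 was -0.94 ± 0.16, or -1.03, which passed, without Babeni site 2 replicate 1. The most abundant ERF071-like transcript, Locus_1868_Transcript_1_5_, had 11.3, 13.02 and 10.97 CPM in Babeni site 2 shoots, 17.2, 14.5 and 13.5 CPM in Babeni site 1 shoots and 39.3, 31.2 and 21.8 CPM in Valcea shoots. Valcea replicate 3 was the lowest at Valcea in all 4 transcripts of Locus_1868. The log2 difference was -1.31 ± 0.19 at Babeni site 2 and -0.97 ± 0.19 at Babeni site 1, where it passed without Valcea replicate 3 (-1.20) or Babeni site 1 replicate 1 (-1.07). Locus_1868_Transcript_4_5_ fell at both sites, by 1.59 at Babeni site 2 and 1.37 at Babeni site 1. Without Valcea replicate 3, Locus_1868_Transcript_2_5_, which passed nowhere with all libraries, stood at -1.14 at Babeni site 2 and -1.24 at Babeni site 1 and passed in both. Summed over the locus the level was 31.1, 34.5 and 36.4 CPM in Babeni site 2 shoots, 43.9, 39.7 and 39.6 CPM in Babeni site 1 shoots and 109.6, 95.1 and 62.1 CPM in Valcea shoots, with no overlap between sites.

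The 2 other ERFs were higher at Babeni. Locus_16389_Transcript_3_8_, described as an ethylene response factor, had 7.02, 10.0 and 10.1 CPM in Babeni site 2 shoots, 8.23, 10.7 and 10.96 CPM in Babeni site 1 shoots and 1.59, 3.31 and 2.63 CPM in Valcea shoots, so every Babeni library lay at more than the highest Valcea value. It rose by 1.69 ± 0.25 at Babeni site 2 and 1.83 ± 0.25 at Babeni site 1, but it made up 18.8% of its locus, whose sum did not pass in either comparison (0.64 and 0.82). ERF 1A, Locus_2668_Transcript_2_2_, had 3.74, 4.01 and 4.76 CPM in Babeni site 2 shoots, 3.83, 4.01 and 2.79 CPM in Babeni site 1 shoots and 1.99, 1.42 and 1.51 CPM in Valcea shoots and rose at Babeni site 2 (1.13 ± 0.25).

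The ethylene-inducible protein Locus_10957_Transcript_10_14_ was among the most abundant members, at 61.2 CPM per kb. Its functional terms name the synthesis of pyridoxal phosphate, the active form of vitamin B6, and 5 other transcripts of its locus are described as pyridoxal or pyridoxine biosynthesis proteins. The member had 35.7, 30.2 and 35.1 CPM in the Babeni site 2 libraries, 53.2, 53.0 and 54.2 CPM in the Babeni site 1 libraries and 101, 97.5 and 77.9 CPM in the Valcea libraries. Valcea was highest, Babeni site 2 lowest and no site overlapped another. It fell by 1.44 on the log2 scale at Babeni site 2 against Valcea, and its difference at Babeni site 1 was -0.77 ± 0.13. The most abundant other transcript of the locus, Locus_10957_Transcript_9_14_, had 9.83, 8.89 and 9.38 CPM in Babeni site 2 shoots, 12.1, 13.9 and 16.6 CPM in Babeni site 1 shoots and 84.6, 68.1 and 46.5 CPM in Valcea shoots, with log2 differences of -2.72 ± 0.20 at Babeni site 2 and -2.16 ± 0.20 at Babeni site 1.

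**Figure D4:**
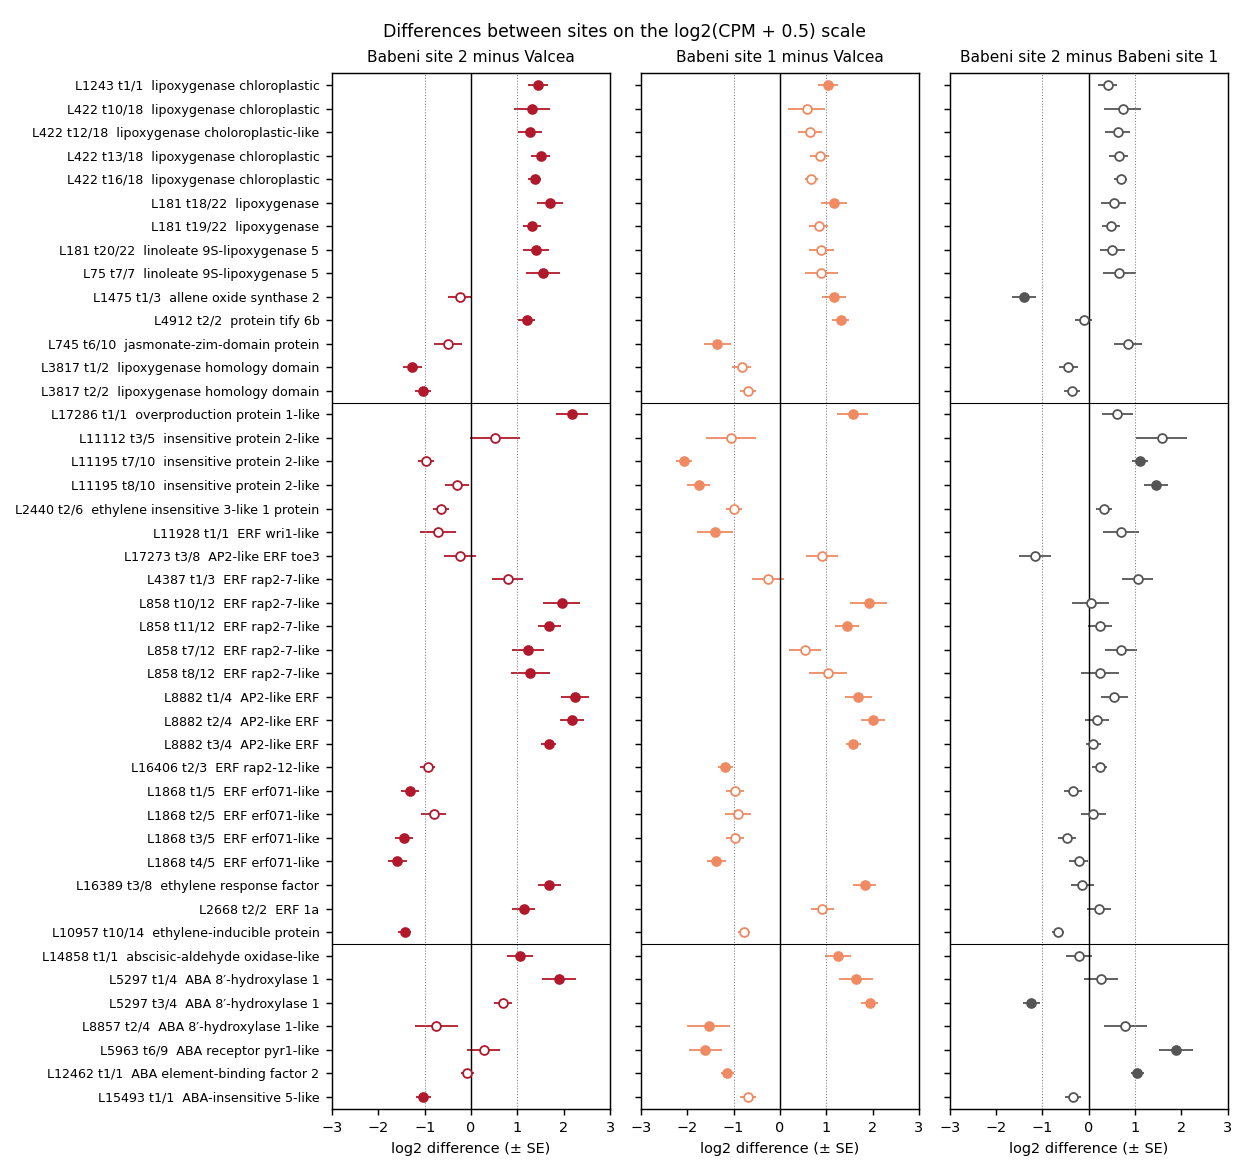
Log2 difference with its SE for the 44 tested transcripts (rows) in the comparisons of Babeni site 2 with Valcea, Babeni site 1 with Valcea and Babeni site 2 with Babeni site 1 (panels, left to right); filled points passed the adjusted p and the 2-fold minimum, dotted lines mark 2-fold. All 9 lipoxygenases are filled in the left panel and 2 in the middle one, and the right panel has 6 filled points.

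The 7 abscisic acid transcripts, from 6 loci, covered synthesis, breakdown, perception and transcription. At Babeni site 2 against Valcea 2 rose and 1 fell, where 6% and 6.09% of all tested transcripts did so. At Babeni site 1 against Valcea 3 rose and 3 fell, where 4.17% and 4.9% of all did so. Between Babeni site 2 and Babeni site 1, 2 rose and 1 fell, where 1.55% and 1.63% of all did so. The authors' tables chose these members too, so nothing is read from the counts. Synthesis was represented by an aldehyde oxidase of the kind that makes abscisic acid from abscisic aldehyde. Locus_14858_Transcript_1_1_ had 7.95, 8.01 and 5.92 CPM in Babeni site 2 shoots, 8.04, 7.82 and 9.46 CPM in Babeni site 1 shoots and 3.97, 1.66 and 4.89 CPM in Valcea shoots, both Babeni sites above Valcea. Its log2 differences were 1.05 ± 0.28 at Babeni site 2 and 1.26 ± 0.28 at Babeni site 1. Without Valcea replicate 2, the lowest library, they were 0.65 and 0.86 and did not pass, and the call at Babeni site 2 also ended without Babeni site 2 replicate 1 (0.99) or replicate 2 (0.98).

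Abscisic acid 8′-hydroxylase, which degrades the hormone, was highest at Babeni site 1. Locus_5297_Transcript_3_4_ stood at 10.3, 15.3 and 14.4 CPM in the Babeni site 2 libraries, 30.8, 33.0 and 31.8 CPM in the Babeni site 1 libraries and 6.35, 8.99 and 8.84 CPM in the Valcea libraries. Its Babeni site 1 libraries lay close together and far above the rest, and no site overlapped another. The log2 difference was 1.93 ± 0.18 for Babeni site 1 minus Valcea, 0.69 ± 0.18 for Babeni site 2 minus Valcea, which did not reach 2-fold, and -1.25 ± 0.18 for Babeni site 2 minus Babeni site 1. The second member of the locus was scarce: Locus_5297_Transcript_1_4_ had 1.29, 2.25 and 1.44 CPM in Babeni site 2 shoots, 1.72, 1.34 and 0.860 CPM in Babeni site 1 shoots and 0, 0.237 and 0 CPM in Valcea shoots, a single read over the Valcea libraries, all of which lay under their 3-read floor. The remaining transcript of the locus, Locus_5297_Transcript_2_4_, listed by the authors without a description, had 3.16, 5.38 and 3.46 CPM in Babeni site 2 shoots, 4.02, 8.21 and 6.02 CPM in Babeni site 1 shoots and 1.59, 0.947 and 1.13 CPM in Valcea shoots. Summed, the locus rose at Babeni site 1 against Valcea by 2.02 and was 1.05 lower at Babeni site 2 than at Babeni site 1 on the log2 scale. A second 8′-hydroxylase, Locus_8857_Transcript_2_4_, was scarce and overlapped between all sites, with 1.40, 0.626 and 0.578 CPM in Babeni site 2 shoots, 0.766, 0 and 0.215 CPM in Babeni site 1 shoots and 3.57, 1.66 and 0.753 CPM in Valcea shoots; its call as lower at Babeni site 1 ended without any 1 of Babeni site 1 replicates 2 and 3 and Valcea replicates 1 and 2, at -1.098 to -1.56.

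The receptor transcript in the set and both bZIP factors were lower at Babeni site 1 than at Valcea. Locus_5963_Transcript_6_9_, named after the Arabidopsis receptor PYR1, had 3.39, 2.63 and 2.45 CPM in Babeni site 2 shoots, 0.957, 0.191 and 0.215 CPM in Babeni site 1 shoots and 1.59, 3.31 and 2.07 CPM in Valcea shoots. The Babeni site 1 libraries lay below all others, and Babeni site 2 overlapped Valcea. It fell by 1.61 at Babeni site 1 against Valcea and was 1.88 ± 0.36 higher at Babeni site 2 than at Babeni site 1. Babeni site 1 replicates 2 and 3 held 1 read each of it, under their 3-read floor. It was a minor transcript, 22.5% of its locus. The other transcripts of the locus stood at -0.35 to -0.06 for Babeni site 1 minus Valcea. The sum of the locus passed in no comparison and overlapped between Babeni site 1 and Valcea (-0.51 ± 0.22). Element-binding factor 2, Locus_12462_Transcript_1_1_, a bZIP factor that binds abscisic acid response elements, stood at 45.5, 55.1 and 47.9 CPM in the Babeni site 2 libraries, 25.3, 21.4 and 24.3 CPM in the Babeni site 1 libraries and 46.5, 55.1 and 56.1 CPM in the Valcea libraries. Its Babeni site 1 libraries lay below all others, while Babeni site 2 and Valcea overlapped. The log2 difference was -1.13 ± 0.14 for Babeni site 1 minus Valcea, -0.09 ± 0.14 for Babeni site 2 minus Valcea and 1.05 ± 0.14 for Babeni site 2 minus Babeni site 1, the last being 0.97 when Babeni site 2 replicate 2 was left out and 0.98 when it was Babeni site 1 replicate 2, short of 2-fold. Abscisic acid-insensitive 5-like, Locus_15493_Transcript_1_1_, another bZIP factor, had 15.7, 15.9 and 11.98 CPM in Babeni site 2 shoots, 19.3, 16.6 and 19.3 CPM in Babeni site 1 shoots and 28.2, 26.03 and 36.5 CPM in Valcea shoots. It differed in order, Babeni site 2 being lowest (-1.03 ± 0.17 against Valcea), and its call there ended without Babeni site 2 replicate 3 (-0.90) or Valcea replicate 3 (-0.89).

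Other genes of the 3 pathways, from a list of protein names that the words of the rule do not match, gave 2 jasmonate, 9 ethylene and 21 abscisic acid transcripts in the authors' tables; they too were chosen by those tables. Of these 32, 8 match the rule in their functional terms, so they are among the 169, and 24 are not members. Of the 21 for abscisic acid 4 rose and 11 fell at Babeni site 2 against Valcea, where 6% and 6.09% of all tested transcripts did so, and 3 rose and 7 fell at Babeni site 1, where 4.17% and 4.9% did so. The tables that chose them use the same contrasts, so nothing is read from these counts. The widest gap was in 4 transcripts of SLAC1-like, an anion channel that acts in Arabidopsis when guard cells close the stomata. All 4 fell at both Babeni sites. Their sum was 1.40, 1.00 and 1.01 CPM in Babeni site 2 libraries, 2.11, 4.58 and 4.30 CPM in Babeni site 1 libraries and 174.3, 172.7 and 141.3 CPM in Valcea libraries. Late embryogenesis abundant proteins, known to accumulate in drying seeds, rose in 3 of 4 transcripts at both Babeni sites, all scarce. Locus_16122_Transcript_1_2_ of these had 2.92, 2.75 and 3.75 CPM in Babeni site 2 shoots, 2.68, 3.43 and 1.93 CPM in Babeni site 1 shoots and 0, 0.710 and 0.564 CPM in Valcea shoots, and Locus_16122_Transcript_2_2_, a member by its terms, had 1.40, 2.88 and 1.88 CPM in Babeni site 2 shoots, 1.72, 1.72 and 2.58 CPM in Babeni site 1 shoots and 0.397, 0.473 and 0.376 CPM in Valcea shoots. Locus_1204_Transcript_6_10_ had 0.702, 2.00 and 1.01 CPM in Babeni site 2 shoots, 1.15, 0.954 and 1.07 CPM in Babeni site 1 shoots and 0, 0 and 0.188 CPM in Valcea shoots. All Babeni libraries lay above those of Valcea in the 3. In Locus_16122_Transcript_2_2_ and Locus_1204_Transcript_6_10_, however, all Valcea libraries lay under their 3-read floor. The 1 described as lea14-a-like, Locus_1787_Transcript_2_10_, had 2.69, 2.13 and 3.46 CPM in Babeni site 2 shoots, 6.70, 2.29 and 4.08 CPM in Babeni site 1 shoots and 7.55, 7.10 and 8.09 CPM in Valcea shoots and fell at Babeni site 2. Zeaxanthin epoxidase, a member by its terms and an early enzyme on the way to abscisic acid, Locus_1009_Transcript_2_2_, had 6.32, 9.76 and 5.92 CPM in Babeni site 2 shoots, 15.3, 16.2 and 17.2 CPM in Babeni site 1 shoots and 32.6, 28.2 and 36.9 CPM in Valcea shoots, falling at Babeni site 2 against both other sites. Phosphatases 2C, a family of which some members act in abscisic acid signalling, fell more often than they rose at Babeni site 2 against Valcea. Locus_3536_Transcript_1_1_, also a member by its terms, had 34.7, 32.8 and 37.8 CPM in Babeni site 2 shoots, 20.3, 20.6 and 17.0 CPM in Babeni site 1 shoots and 15.9, 9.47 and 16.6 CPM in Valcea shoots. Locus_10655_Transcript_1_1_ had 42.5, 43.6 and 49.4 CPM in Babeni site 2 shoots, 55.9, 67.9 and 66.6 CPM in Babeni site 1 shoots and 156, 126 and 104 CPM in Valcea shoots. The first alone of the listed phosphatases rose at Babeni site 2 against Valcea, and the second fell. Locus_466_Transcript_2_5_ (-1.27), Locus_466_Transcript_3_5_ (-1.58), Locus_466_Transcript_4_5_ (-1.69) and Locus_550_Transcript_6_8_ (-1.10) fell there too. The rest did not pass there.

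Read in the same way for ethylene, 2 of the 9 rose and 4 fell at Babeni site 2 against Valcea, where 6% and 6.09% of all tested transcripts did so. At Babeni site 1 against Valcea 1 rose and 2 fell, where 4.17% and 4.9% of all did so. The 3 that passed between Babeni site 2 and Babeni site 1 fell, where 1.55% of all rose and 1.63% fell. Again nothing is read from these counts. The 4 that fell at Babeni site 2 were all EIN3-binding F-box proteins, which mark EIN3 for degradation. Locus_11702_Transcript_4_5_ of these had 0, 0.250 and 0.144 CPM in Babeni site 2 shoots, 1.72, 0.572 and 0.645 CPM in Babeni site 1 shoots and 8.74, 8.52 and 4.70 CPM in Valcea shoots. All its Babeni site 2 libraries lay under their 3-read floor. S-adenosylmethionine synthase, which makes the precursor of ACC, was highest at Babeni site 1: Locus_4037_Transcript_3_12_ had 31.0, 26.04 and 31.9 CPM in Babeni site 2 shoots, 78.9, 57.6 and 62.8 CPM in Babeni site 1 shoots and 36.5, 44.0 and 31.4 CPM in Valcea shoots. Locus_16181_Transcript_4_5_, described as an ACC oxidase homolog, is listed with ethylene by its name only. The terms that make it a member concern jasmonate and not ethylene. It had 4.91, 3.25 and 4.76 CPM in Babeni site 2 shoots, 3.45, 3.43 and 3.01 CPM in Babeni site 1 shoots and 0.794, 0.473 and 0.753 CPM in Valcea shoots and rose at both Babeni sites. Of the MYC2-type factors, Locus_1479_Transcript_3_3_ had 7.95, 6.38 and 6.50 CPM in Babeni site 2 shoots, 12.3, 15.8 and 13.3 CPM in Babeni site 1 shoots and 21.0, 19.9 and 17.1 CPM in Valcea shoots and fell at Babeni site 2 against Valcea (-1.42 ± 0.17), and Locus_17635_Transcript_5_8_, with 1.64, 1.88 and 3.18 CPM in Babeni site 2 shoots, 4.60, 4.01 and 6.23 CPM in Babeni site 1 shoots and 3.97, 2.37 and 1.88 CPM in Valcea shoots, did not pass there (-0.24 ± 0.30).

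**Figure D5:**
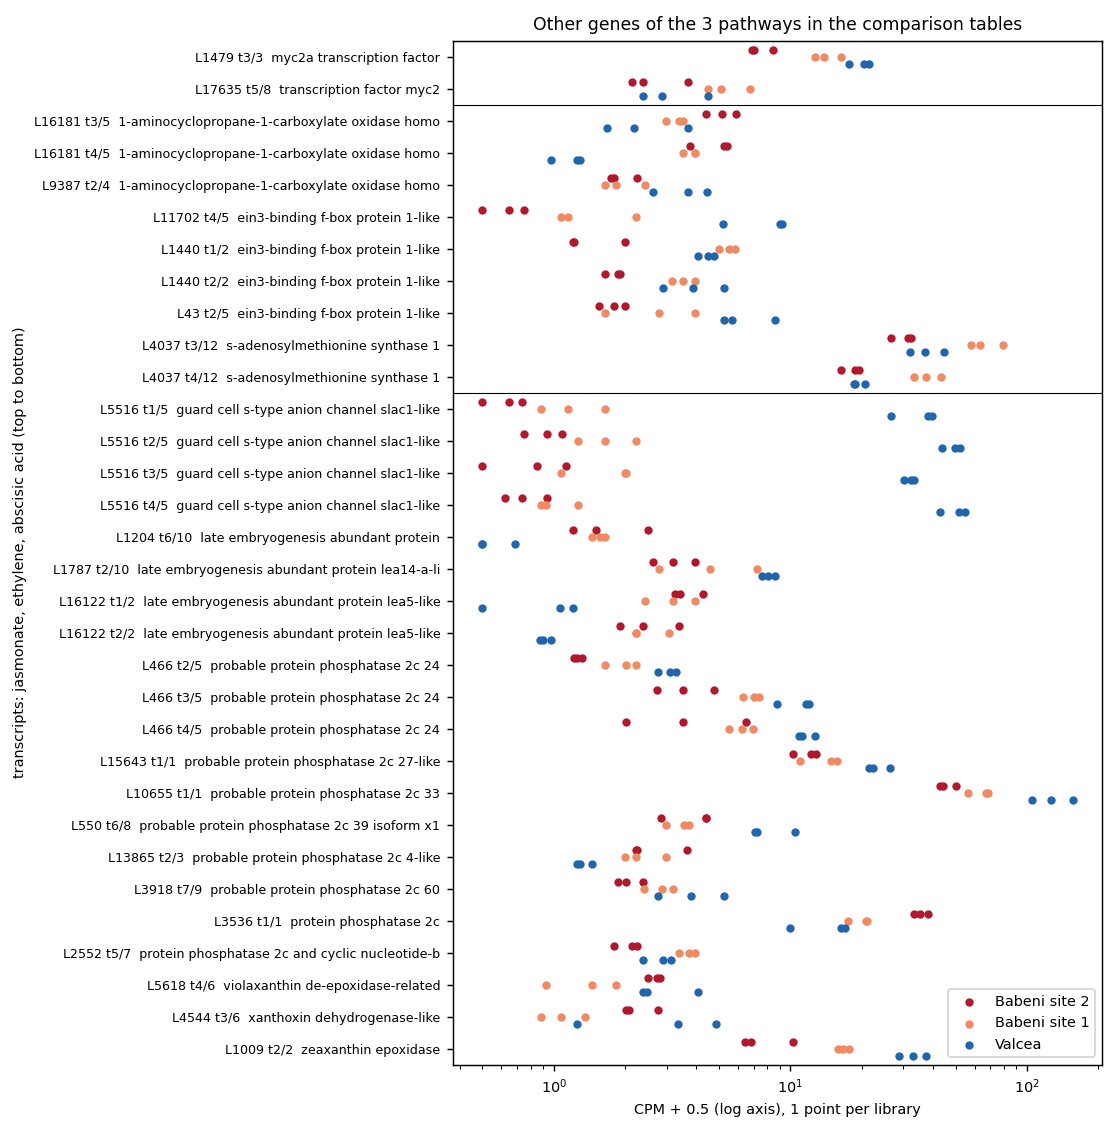
CPM + 0.5 (horizontal log axis) in each library, 1 point per library, of the 32 transcripts of the 3 pathways whose protein names the rule does not match (rows), 8 of which are members by their terms. The SLAC1-like rows have the Valcea points far to the right of both Babeni sites, and the EIN3-binding F-box rows have the Babeni site 2 points mostly at the left.

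The 169 transcripts matched only in functional terms were split between directions. Of 168 tested, 51 rose and 57 fell at Babeni site 2 against Valcea, with a median log2 difference of -0.12, where 6% and 6.09% of all tested transcripts rose and fell. Babeni site 1 against Valcea gave 42 that rose and 38 that fell (median 0.25), where 4.17% and 4.9% of all did. Between Babeni site 2 and Babeni site 1, 6 rose and 12 fell (median -0.13), where 1.55% and 1.63% of all did. The authors' tables chose these too, so nothing is read from the excess. The terms concern abscisic acid in 105 of them, jasmonate in 67 and ethylene in 24, with 20 naming more than 1 hormone; response to abscisic acid was the most frequent term, in 79. The abscisic acid ones had a median log2 difference of 0.64 at Babeni site 2 and 0.55 at Babeni site 1 from Valcea, the jasmonate ones of -0.97 and -0.57, and the ethylene ones of -0.98 and -0.58. Of the 23 ethylene ones tested, 6 rose and 11 fell at Babeni site 2 and 3 rose and 6 fell at Babeni site 1 against Valcea.

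Of all tested transcripts 6% rose and 6.09% fell at Babeni site 2 against Valcea, and 4.17% and 4.9% at Babeni site 1. The authors' tables chose the members of the families below, so nothing is read from their counts. By gene family, the 7 plasma membrane intrinsic proteins, which are water channels, fell in 3 cases at Babeni site 2 and in 6 at Babeni site 1 against Valcea. The 4 transcripts of an arginine decarboxylase, an enzyme of polyamine synthesis, all fell at Babeni site 2 and 3 of them at Babeni site 1. The 4 of mannose-1-phosphate guanylyltransferase, an enzyme of ascorbate synthesis, all fell at Babeni site 2 and 1 at Babeni site 1. Other families were higher than at Valcea. The 7 transcripts of a methyltransferase that uses S-adenosylmethionine, all from Locus_313, rose at Babeni site 1, and 1 of them rose at Babeni site 2. The 4 of BEACH domain protein LVSA-like, from 2 loci, all rose at Babeni site 1, where their log2 differences were 1.01 to 1.31, and were 0.42 to 0.67 at Babeni site 2, which did not pass. Of 4 transcripts of a CBL-interacting protein kinase 1-like, a type of kinase that acts with calcium sensors, 3 rose at Babeni site 2 and 1 at Babeni site 1. Catalases, which break down hydrogen peroxide, were mixed among 6 transcripts: 3 rose and 2 fell at Babeni site 2, and 1 rose at Babeni site 1. Locus_9527_Transcript_13_21_ had 38.1, 34.05 and 34.9 CPM in Babeni site 2 shoots, 14.9, 12.4 and 16.3 CPM in Babeni site 1 shoots and 8.74, 5.92 and 12.2 CPM in Valcea shoots, with Babeni site 2 highest, whereas Locus_9527_Transcript_12_21_ of the same locus had 1.17, 1.38 and 2.17 CPM in Babeni site 2 shoots, 4.60, 4.01 and 3.87 CPM in Babeni site 1 shoots and 0.397, 0.947 and 0.376 CPM in Valcea shoots, with Babeni site 1 highest.

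The largest differences of this larger group were in single loci. A mitochondrial uncoupling protein, Locus_5285_Transcript_4_4_, which carries an ethylene term, had 6.20, 4.51 and 4.62 CPM in the Babeni site 2 libraries, 8.23, 8.396 and 9.24 CPM in the Babeni site 1 libraries and 60.8, 59.4 and 60.4 CPM in the Valcea libraries. It fell at both Babeni sites, with log2 differences of -3.45 ± 0.16 at Babeni site 2 and -2.74 ± 0.16 at Babeni site 1, and its Valcea libraries lay close together. A transcript described as protochlorophyllide chloroplastic-like, Locus_387_Transcript_3_4_, had 16.3, 14.1 and 14.4 CPM in Babeni site 2 shoots, 11.7, 11.8 and 12.5 CPM in Babeni site 1 shoots and 2.38, 1.42 and 0.564 CPM in Valcea shoots, rising by 3.09 ± 0.28 at Babeni site 2 and 2.79 ± 0.28 at Babeni site 1. Anthocyanidin synthase, a pigment enzyme, Locus_1271_Transcript_1_4_, had 2.22, 1.38 and 1.16 CPM in Babeni site 2 shoots, 1.53, 2.48 and 2.79 CPM in Babeni site 1 shoots and 9.93, 15.1 and 10.5 CPM in Valcea shoots. The zinc finger CCCH protein Locus_887_Transcript_7_10_ was highest at Babeni site 2 and lowest at Valcea, with 18.8, 17.1 and 14.4 CPM in Babeni site 2 shoots, 9.38, 7.06 and 6.02 CPM in Babeni site 1 shoots and 3.18, 2.13 and 1.88 CPM in Valcea shoots, and passed in all 3 comparisons. Plastid-lipid-associated protein 2, Locus_8988_Transcript_4_6_, was low at Babeni site 2 alone, with 0.585, 0.626 and 0.433 CPM in Babeni site 2 shoots, 4.21, 7.25 and 5.37 CPM in Babeni site 1 shoots and 5.96, 5.44 and 9.41 CPM in Valcea shoots.

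At the authors' threshold of 2-fold the nearest of the 45 matched by name were 3 ERF071-like transcripts, Locus_1868_Transcript_1_5_, Locus_1868_Transcript_2_5_ and Locus_1868_Transcript_3_5_, with log2 fold changes of -1.003, -1.004 and -1.007 for Babeni site 1 over Valcea in the authors' deposited table. Among the rest, Locus_1704_Transcript_1_1_, a vh1-interacting kinase, stood at -1.002 for Babeni site 2 over Valcea in the authors' deposited table. Transcripts outside the threshold in every comparison carry no description in the sources used here, so none of those could be matched.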

How the data were processed

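RNA-seq of 9 Elodea libraries was analysed. The deposited values are a scaled signal: the authors named it CPM, per the file headers, but the columns do not all sum to the same total. All values (100%) were whole multiples, within 0.01, of the worth of 1 read, so reads were recovered. The authors' deposited tables give log2 fold changes and p-values of transcripts past a fold of 2 at a false discovery rate of 5%, per the file headers and names. Per the submitters' processing notes the tools were edgeR 3.4.2, HTSeq 0.5.3p9, TopHat2 2.0.11 and BWA 0.7.10, with no roles stated; the genome or transcript assembly and its annotation are not given in the sources used here.

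Differences were fitted with limma 3.58.1 (R 4.3.3, trend) on log2(CPM + 0.5), so they understate the change of low transcripts, over all 9 libraries and the 56752 transcripts with at least 1 CPM in at least 3 libraries, with Benjamini-Hochberg adjustment. The script was tested on simulated data. Alternatives included DESeq2 1.42.0 and edgeR 4.0.16 on the recovered reads; edgeR called 7507 transcripts for Babeni site 2 against Valcea, 4954 for Babeni site 1 against Valcea and 2191 for Babeni site 2 against Babeni site 1, beside 6861, 5151 and 1805 by limma. Described in each library were the highest member of each role, the 3 largest rises and falls per hormone and comparison whose higher site averaged 2 CPM or more, and the locus with most members per hormone; further transcripts were chosen after their values were seen. Members and lists were chosen with earlier results of these data known. Floors cover counting error only. No sequence is printed.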

Additional observations from a re-analysis of the deposited data

How the results depend on the processing

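Counts below are those that rose and fell at Babeni site 2 against Valcea, Babeni site 1 against Valcea, and Babeni site 2 against Babeni site 1, for all 214 members and then for the 45 matched by name. The limma calls were 73 and 64, 56 and 47, 10 and 14, and 22 and 7, 14 and 9, 4 and 2. A pseudocount of 2 gave 37 and 42, 24 and 27, 5 and 7, and 16 and 6, 9 and 5, 2 and 1. A minimum of 5 CPM gave 45 and 50, 37 and 30, 7 and 8, and 17 and 7, 11 and 5, 3 and 1, with fewer transcripts tested. Sums per locus gave 26 and 31, 21 and 23, 6 and 5, and 7 and 4, 7 and 7, 2 and 1, with loci counted in place of transcripts. The adjusted p alone gave 88 and 78, 69 and 75, 16 and 29, and 23 and 11, 19 and 17, 5 and 3. On recovered reads edgeR gave 80 and 76, 52 and 48, 10 and 17, and 21 and 8, 15 and 10, 4 and 3; DESeq2 gave 62 and 63, 40 and 39, 8 and 12, and 20 and 7, 13 and 8, 4 and 2.

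Leaving out 1 library of the compared sites in turn gave, for all members, 59 to 71 rises and 58 to 63 falls at Babeni site 2 against Valcea, 41 to 58 and 38 to 57 at Babeni site 1 against Valcea, and 7 to 10 and 12 to 13 between Babeni site 2 and Babeni site 1. For those matched by name it gave 19 to 20 and 6 to 9, 13 to 19 and 8 to 13, and 3 to 4 and 2 in the same comparisons. Samples with the same replicate number showed no sign of deviating together (correlations of -0.156 to 0.0577, beside -0.12 to 0.169 for different numbers). With 3 libraries a site this cannot exclude that the numbers pair the samples. The numbers used are those of the sample titles, and for some libraries the sample name carries another number. With the replicate number as a block the counts were 70 and 63, 55 and 47, 10 and 12, and 21 and 7, 14 and 9, 5 and 2. Of 153 differences of single named transcripts, 5 changed sign, each when 1 library was left out and each one that did not pass with all libraries. Sums per locus changed the sign of 3 that did not pass either: 0.75 in Locus_4387, -1.05 in Locus_5297, which passed, and -0.27 in Locus_1868. At 3 reads a transcript stands at up to 1.19 CPM, so those near 1 CPM are limited by depth.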

Other observations

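The Valcea library nearest to the Babeni site 2 values was replicate 3 in 14 of the 29 calls among the transcripts matched by name (48.3%), beside 48.6% of all 6861 calls. For Babeni site 1 it was replicate 3 in 8 of 23 calls (34.8%), beside 49.8% of all 5151 calls. Chlorophyll a/b binding transcripts, given with the samples, and 3 small-subunit transcripts of ribulose bisphosphate carboxylase also varied by site. The small subunit summed to 131.6 to 196.8 CPM in Babeni site 2 shoots, 205.3 to 299.3 CPM in Babeni site 1 shoots and 459.4 to 690.6 CPM in Valcea shoots; the part of either in the hormone results was not tested.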
